A study of Mus musculus with 15 samples.

Results

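The CCN genes encode a family of secreted matricellular proteins, and 5 of them, Ccn1 (older name Cyr61), Ccn2 (Ctgf), Ccn3 (Nov), Ccn4 (Wisp1) and Ccn5 (Wisp2), were followed here. Members were chosen by name: every probe set whose only gene symbol in the platform annotation was one of these 5 was taken. This gave 5 probe sets, 1 for each gene, among 12422 probe sets that were not controls and 8251 genes with a symbol of their own. All 5 passed the filter on low signal. RNA came from MC3T3 clone 1b, which is 1 clone of a mouse calvarial line of osteoblast precursors, and was measured on 15 single-colour arrays in 5 groups of 3. The groups were GP/AA/BMP-2 at day 1 and at day 3, GP at day 1 and at day 3, and control medium at day 0. GP stands for beta-glycerol phosphate, AA for ascorbic acid and BMP-2 for bone morphogenetic protein 2. AA and BMP-2 were always given together, so their effects cannot be told apart, and GP was present in every culture after day 0. Each group held preps 1, 2 and 3. The labels do not say whether a prep was a culture of its own, so each p-value reflects the spread among these arrays, part of which may be technical.

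CCN proteins are built from modules that resemble insulin-like growth factor binding proteins, the von Willebrand factor type C repeat, the thrombospondin type 1 repeat and a carboxy-terminal cystine knot; Ccn5 lacks the last of these. They bind integrins, heparan sulfate proteoglycans and growth factors, among them transforming growth factor beta and BMPs, and so modulate adhesion and signalling at the cell surface. In cells of bone and cartilage Ccn1 and Ccn2 are known as quickly inducible genes, targets of serum, transforming growth factor beta and the YAP and TEAD factors, while Ccn4 is known as a Wnt-induced gene.

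The promoter of Ccn1 is shown because this member was found in the RefSeq promoter table (1 of 5 matched) and carries a match to the TEAD element, TEAD factors being known regulators of Ccn1. It lies on the minus strand at chr3:145649986-145650235 of mouse build GRCm38.p6 and covers the 250 bases before the annotated start, printed 5′ to 3′ on the gene's strand. Capitals mark 3 matches: CATTCC, the core of the TEAD element, at -103 to -98, CGTCA, the other strand of the cyclic AMP response element core TGACG, at -58 to -54, and the TATA box TATAAA at -25 to -20.
Ccn1 promoter: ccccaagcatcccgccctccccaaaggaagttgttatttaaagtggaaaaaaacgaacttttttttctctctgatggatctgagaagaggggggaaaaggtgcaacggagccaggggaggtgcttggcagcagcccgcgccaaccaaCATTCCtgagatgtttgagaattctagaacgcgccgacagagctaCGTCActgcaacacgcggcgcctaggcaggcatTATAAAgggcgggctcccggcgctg
Both strands were searched. CATTCC was found in 12.6% of 32851 promoters of the same length, TATAAA in 12.4% and TGACG in 17.8%. These matches are a description of the letters in this window.

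Values are deposited intensities per probe set, on a linear scale. Of the 7 osteoblast markers on the array with a symbol of their own, 6 passed the filter: Alpl, Col1a1, Col1a2, Ibsp, Cdh11 and Sparc. Dmp1 did not. Of all 12422 probe sets, 7502 passed. Ibsp passed narrowly, with a mean of 25.4 against a limit of 24.8 and arrays between 0.5 and 168.9. Alpl ranged from 10.2 to 970.9. The summed level of the 7 ranged from 22093 to 26935 in GP/AA/BMP-2 cultures at day 3 and from 16554 to 22858 in GP cultures at day 3. Most of that sum came from Col1a1 and Col1a2, with means of 9189 and 8935, so it says little of the other markers. Of the markers of other cell types, 0 of 5 endothelial, 1 of 5 macrophage (Csf1r), 1 of 5 adipocyte (Cebpa), 1 of 4 chondrocyte (Col9a1), 1 of 4 epithelial (Cdh1) and 2 of 5 skeletal muscle markers (Myod1 and Myog) passed it. Prep 3 stood apart in low values: between 12.09% and 14.26% of probe sets lay under 2.8 on its 5 arrays, against 7.29% to 10.05% on the arrays of preps 1 and 2. The ratio of the 3′ to the 5′ probe sets of actin was 2.112 on the GP day 3 array of prep 3, and 1.003 to 1.336 on the other 14 arrays.

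Ccn2, which encodes connective tissue growth factor, was the member with the largest difference between treatments. At day 3 its intensity in GP/AA/BMP-2 cultures was 219.1, 331.4 and 190.1 (preps 1, 2 and 3), against 12.7, 28.3 and 61.6 in GP cultures. The groups did not overlap, and the GP array of prep 1 held the lowest of the 15 values. The means were 247 ± 74.6 in GP/AA/BMP-2 cultures and 34.2 ± 25 in GP cultures (SD, n = 3 each). The log2 fold change was 3.09 ± 0.64 (SE, 95% interval 1.72 to 4.47). Ccn2 was higher in GP/AA/BMP-2 than in GP cultures at an adjusted p of 0.0156 (limma, Benjamini-Hochberg over 7502 probe sets). With the prep number as a block the adjusted p was 0.00501. The difference within a prep was 4.11 in prep 1, 3.55 in prep 2 and 1.63 in prep 3, on the log2 scale. The call was lost without prep 1 (adjusted p = 0.130), without prep 2 (0.369), without the GP/AA/BMP-2 array of prep 2 (0.0626), and without the GP array of prep 1 (0.0766) or of prep 2 (0.0577). It was lost too with the floor set to 45.6, the 50th percentile of all values and above the GP values of preps 1 and 2, where the log2 fold change was 2.25 (0.0536). Among blocked fits that left out a prep or array it was lost only without prep 2 (0.110). In these bulk samples fewer cells of a type and less RNA per cell cannot be told apart.

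At day 1 Ccn2 was at 568.6, 255.6 and 122.2 in GP/AA/BMP-2 cultures, against 41.7, 49.1 and 119.4 in GP cultures. The ranges did not overlap, but the values of prep 3 were nearly the same. The within-prep log2 differences were 3.77, 2.38 and 0.03, and the log2 fold change of 2.06 ± 0.64 did not pass the test (adjusted p = 0.179 in limma, 0.0712 with the block). Without prep 3 it was 3.08 (adjusted p = 0.0190, and 0.00946 with the block). Without the GP/AA/BMP-2 array of prep 3 alone, the blocked value was 2.91 (adjusted p = 0.0128). The control medium at day 0 gave 74.7, 182.6 and 235.4. Against it the GP arrays of day 3 differed by -2.56, -2.69 and -1.93 on the log2 scale (preps 1, 2 and 3), a contrast that was not tested. The GP/AA/BMP-2 arrays of day 3 differed from it by 1.55, 0.86 and -0.31. Their log2 fold change of 0.70 ± 0.64 against medium did not pass the test (adjusted p = 0.714 in limma). Medium and time changed together in both. The level of Ccn2 was thus highest in GP/AA/BMP-2 cultures at day 1 and day 3, then in medium at day 0, GP at day 1 and GP at day 3, in order of mean log2 intensity, and each neighbour's range overlapped the next.

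Ccn1, the other member known as an immediate early gene, was higher in GP/AA/BMP-2 cultures than in GP cultures of the same prep at both days, without passing the test. At day 1 it was at 272.7, 139.9 and 181.4 in GP/AA/BMP-2 cultures, against 74.4, 108.9 and 120.0 in GP cultures. The groups did not overlap at day 1. At day 3 it was at 219.9, 241.2 and 305.1 in GP/AA/BMP-2 cultures, against 88.2, 149.5 and 242.0 in GP cultures. Here the GP array of prep 3 reached into the GP/AA/BMP-2 range. The log2 fold change was 0.94 ± 0.32 at day 1 (adjusted p = 0.246, and 0.0767 with the block) and 0.78 ± 0.32 at day 3 (0.223, and 0.0904 with the block), in limma. In medium at day 0 and in GP at day 1, prep 3 held the highest Ccn1, Ccn2, Ccn3 and Ccn4, at actin ratios of 1.205 and 1.227. In GP/AA/BMP-2 cultures, at ratios of 1.236 (day 1) and 1.336 (day 3), prep 3 held the lowest Ccn2 at both days. There it held the highest Ccn4 at both days, the highest Ccn3 at day 1 only and the highest Ccn1 at day 3 only. The GP day 3 array of prep 3 was the one with the high actin ratio. In its group it held the lowest Ccn5 and the highest Ccn1, Ccn2, Ccn3 and Ccn4. Without it the day 3 log2 fold change of Ccn1 was 1.14 (adjusted p = 0.0501) and the blocked one was 1.07 (0.0330), and that of Ccn2 was 3.66 (0.00834). The part of that array's RNA quality in these values was not tested.

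All 3 GP values of Ccn1 at day 1 lay under those of medium at day 0, which were 182.8, 179.0 and 195.4. That difference had an unadjusted p of 0.0145 and a log2 fold change of -0.91 ± 0.32, but not an adjusted p under 0.05 (0.862 in limma, 0.323 with the block). In order of mean log2 intensity the groups ran GP/AA/BMP-2 day 3, GP/AA/BMP-2 day 1, medium day 0, GP day 3 and GP day 1, with overlap between all neighbours.

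**Figure D1:**
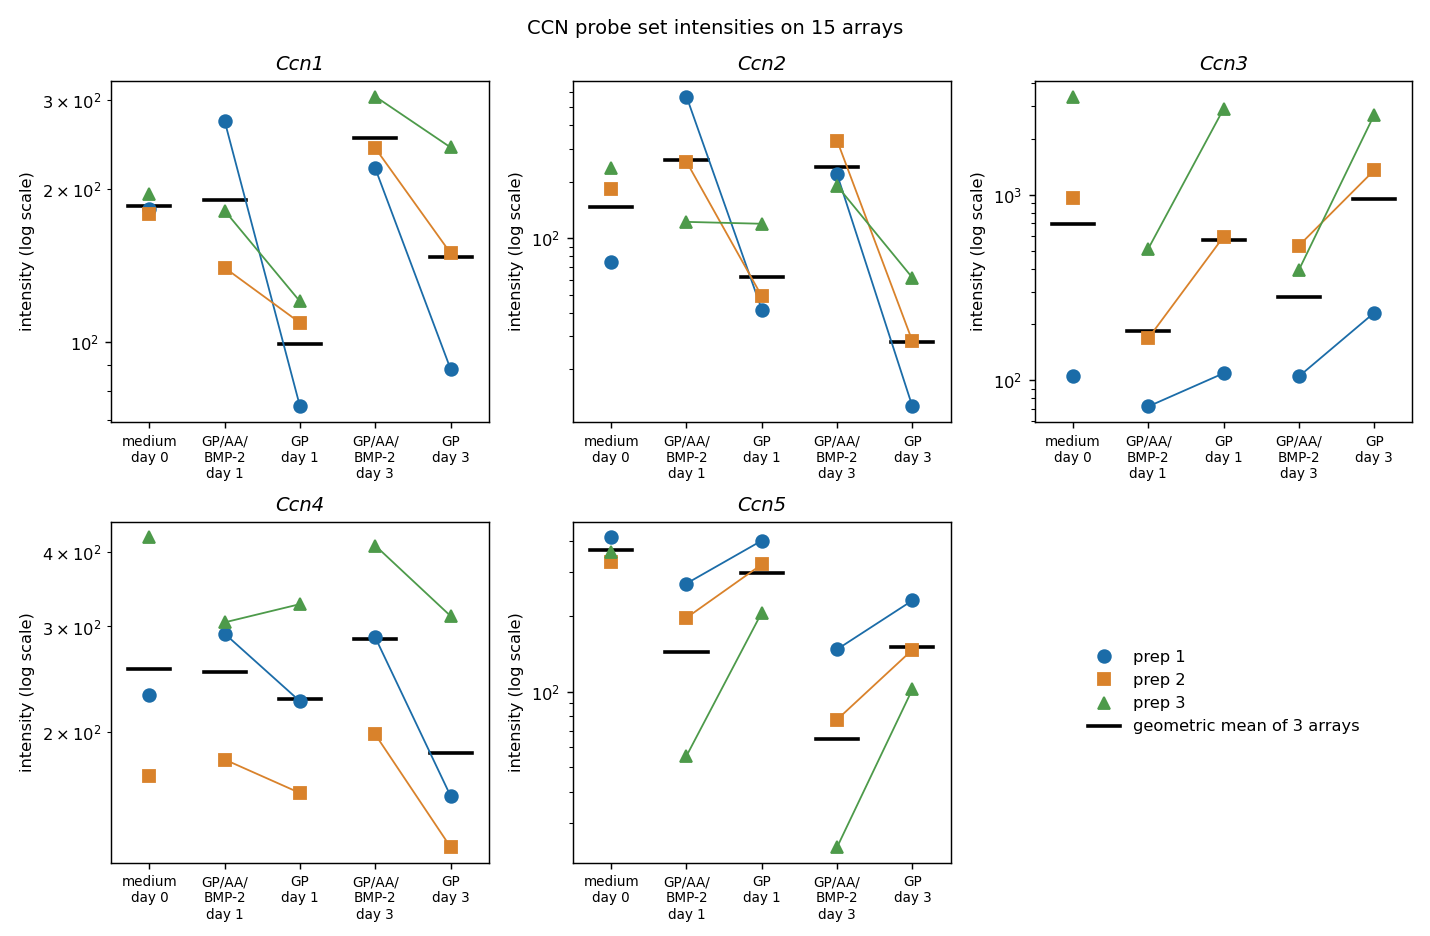
Intensity of the 5 CCN probe sets (log axis, arbitrary units) on 15 arrays in 5 groups; markers show preps 1, 2 and 3, thin lines join GP/AA/BMP-2 and GP cultures of the same prep and day, and black bars give the geometric mean of 3 arrays. Ccn2 at day 3 lies at 190.1 to 331.4 in GP/AA/BMP-2 cultures, above 12.7 to 61.6 in GP cultures, and the levels of Ccn3 and Ccn4 differ mainly between preps.

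Ccn4, also called Wnt1-inducible signalling pathway protein 1 and known to promote osteoblast differentiation, varied mainly with the prep. Its mean intensity was 238 over the 5 arrays of prep 1, 167 in prep 2 and 355 in prep 3, and the prep accounted for 75.8% of the sum of squares of its log2 intensity while the group accounted for 17.2%. At day 3 Ccn4 was at 287.6, 198.2 and 409.2 in GP/AA/BMP-2 cultures, against 156.5, 128.6 and 312.3 in GP cultures. The groups overlapped, yet in each prep the GP/AA/BMP-2 array was the higher one, by 0.88, 0.62 and 0.39 on the log2 scale. The log2 fold change of 0.63 ± 0.41 had an adjusted p of 0.499 in limma. With the prep number as a block the SE was 0.15 and the adjusted p was 0.0144. That blocked call held in 4 of 9 fits that left out a prep or 1 of the arrays compared, with adjusted p-values between 0.0118 and 0.154. At day 1 the values were 291.8, 180.0 and 304.8 in GP/AA/BMP-2 cultures, against 225.1, 158.3 and 326.9 in GP cultures, and prep 3 went the other way from preps 1 and 2. The log2 fold change was 0.15 ± 0.41 (95% interval -0.73 to 1.03; adjusted p = 0.972). Medium at day 0 gave 230.3, 169.2 and 422.6. The order by mean log2 intensity was GP/AA/BMP-2 day 3, medium day 0, GP/AA/BMP-2 day 1, GP day 1 and GP day 3, with overlap throughout.

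Ccn3 was first described as the product of a gene overexpressed in nephroblastoma. In bone cells it is known to bind BMP-2 and restrain osteoblast differentiation. Its span between the lowest and the highest array was 46.8-fold, the widest of the 5 but close to the 44.8-fold span of Ccn2. Most of the Ccn3 span lay between preps. The mean over 5 arrays was 124 in prep 1, 721 in prep 2 and 1976 in prep 3, and the prep accounted for 67.9% of the sum of squares. At day 3 Ccn3 was at 104.8, 531.2 and 392.8 in GP/AA/BMP-2 cultures, against 230.9, 1353.9 and 2693.2 in GP cultures. At day 1 it was at 72.2, 168.2 and 511.5 in GP/AA/BMP-2 cultures, against 109.0, 593.7 and 2900.7 in GP cultures. The groups overlapped at both days, and in every prep the GP/AA/BMP-2 array was the lower one. The within-prep log2 differences were -1.14, -1.35 and -2.78 at day 3 and -0.59, -1.82 and -2.50 at day 1, so prep 3 had the largest at each day.

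The log2 fold change of Ccn3 was -1.76 ± 1.35 at day 3 (adjusted p = 0.578) and -1.64 ± 1.35 at day 1 (0.792) in limma. With the prep as a block the SE was 0.48, and the adjusted p was 0.0257 at day 3 and 0.0660 at day 1. The blocked call at day 3 held in 4 of 9 fits that left out a prep or 1 of the arrays compared (adjusted p between 0.0252 and 0.123). Medium at day 0 gave 105.1, 957.3 and 3380.2, a spread as wide as that in GP cultures. By mean log2 intensity the order was GP day 3, medium day 0, GP day 1, GP/AA/BMP-2 day 3 and GP/AA/BMP-2 day 1, again with overlap between all neighbours.

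Ccn5, the member without the cystine knot and known to restrain proliferation in smooth muscle cells, was lower in cultures with AA and BMP-2 and lowest there at day 3. At day 3 it was at 147.8, 77.5 and 24.0 in GP/AA/BMP-2 cultures, against 231.5, 147.2 and 102.4 in GP cultures. At day 1 it was at 270.6, 197.5 and 55.5 in GP/AA/BMP-2 cultures, against 401.3, 322.5 and 207.2 in GP cultures. Medium at day 0 gave 414.0, 330.9 and 360.8. GP/AA/BMP-2 and GP groups overlapped at both days, and in every prep the GP/AA/BMP-2 array was lower. All 3 GP/AA/BMP-2 arrays of day 3 lay under all 3 of medium at day 0. So did all 3 GP arrays of day 3, with within-prep log2 differences of -0.84, -1.17 and -1.82, a contrast that was not tested. Comparisons with day 0 change the medium and the time together. Between GP/AA/BMP-2 at day 3 (83.1 ± 62.1, SD, n = 3) and medium at day 0 (369 ± 42.1) Ccn5 fell by 2.50 ± 0.62 on the log2 scale, with an adjusted p of 0.0470 in limma and 0.000769 with the block. Without the block, that call was lost without prep 1 (adjusted p = 0.152) or prep 2 (0.409), without any 1 of the medium arrays (0.15, 0.106 and 0.113 for preps 1, 2 and 3) and without the GP/AA/BMP-2 array of prep 2 (0.108) or prep 3 (0.166). It was lost as well with the floor at 45.6 (0.0699), no signal filter (0.0959), no mean trend (0.0683), robust estimation (0.0543) and only the 2 groups compared (0.0933). With the block it held in all 9 fits that left out a prep or 1 of the arrays compared (0.000366 to 0.0281).

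The effect of AA and BMP-2 on Ccn5 at a given day did not pass the unblocked test. The log2 fold change against GP was -1.22 ± 0.62 at day 3 (adjusted p = 0.346 in limma, 0.0354 with the block) and -1.06 ± 0.62 at day 1 (0.592, and 0.106 with the block). The within-prep differences were -0.65, -0.93 and -2.09 at day 3 and -0.57, -0.71 and -1.90 at day 1, largest in prep 3 at each day. The blocked call at day 3 held in 2 of 9 fits that left out a prep or 1 of the arrays compared (0.0226 to 0.171). Between the days Ccn5 differed by -1.14 ± 0.62 in GP/AA/BMP-2 cultures (adjusted p = 0.701, and 0.106 with the block) and by -0.98 ± 0.62 in GP cultures (0.927, and 0.234 with the block). By mean log2 intensity the groups ran medium day 0, GP day 1, GP day 3, GP/AA/BMP-2 day 1 and GP/AA/BMP-2 day 3, and each overlapped the next.

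Counted over the family, limma called 1 of the 5 members between GP/AA/BMP-2 and GP at day 3, Ccn2, where it called 4.28% of all 7502 probe sets (2.16% higher and 2.12% lower). At day 1 it called 0 of 5, against 0.933% of all (0.320% higher and 0.613% lower), and 2 members, Ccn1 and Ccn2, had an unadjusted p under 0.05, as did 849 of all probe sets. With the prep number as a block it called 4 of 5 at day 3, Ccn2 and Ccn4 higher and Ccn3 and Ccn5 lower, against 14.0% of all probe sets (6.98% higher and 7.05% lower). At day 1 the blocked fit called 0 of 5, against 4.96% of all (2.08% higher and 2.88% lower), with 4 members at an unadjusted p under 0.05, as were 1481 of all 7502 probe sets. Groups that did not overlap were found for 1 of 5 members at day 3 (Ccn2), against 20.2% of all probe sets, and for 2 of 5 at day 1 (Ccn1 and Ccn2), against 17.0%. The median log2 fold change over the 5 members was 0.63 at day 3 and 0.15 at day 1, and that over all probe sets was 0.00 at both days, but the members moved in opposite directions and a median does not describe them.

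**Figure D2:**
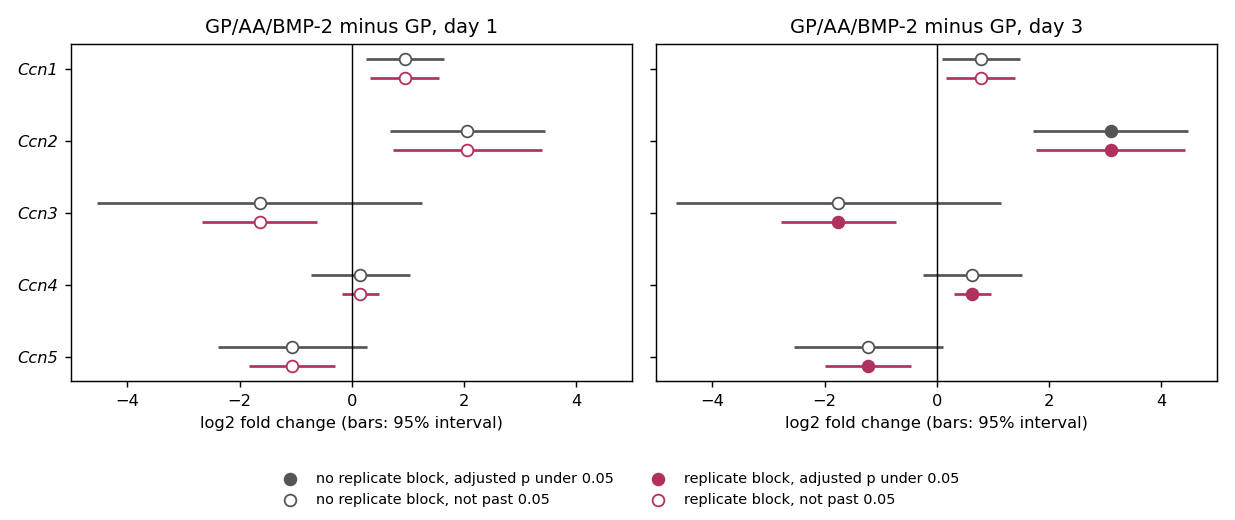
Log2 fold change of GP/AA/BMP-2 minus GP for the 5 members at day 1 (left) and day 3 (right), without and with the prep number as a replicate block; bars are 95% intervals and filled points have an adjusted p under 0.05. At day 3 Ccn2 is at 3.09 and is filled in both fits, and Ccn3, Ccn4 and Ccn5 are filled only with the block.

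The test of the difference between the day 3 and the day 1 effect called 0 of 5 members and 0% of all probe sets, with and without the block; without it, 0 members and 278 of all probe sets had an unadjusted p under 0.05, and with it, 1 member and 659. The difference was 1.03 ± 0.91 for Ccn2 (95% interval -0.91 to 2.98) and 0.48 ± 0.58 for Ccn4 (-0.76 to 1.72), each with an adjusted p of 1.00 in limma. For both it was above 0 in all 3 preps, from 0.34 to 1.59 for Ccn2 and from 0.44 to 0.50 for Ccn4. For Ccn5 it was below 0 in all 3, from -0.22 to -0.08, and for Ccn1 and Ccn3 the sign differed between preps. How many of all probe sets kept 1 sign in the 3 preps was not counted. Between GP at day 1 and medium at day 0, 0 of 5 members were called (0.227% of all, and 0.720% with the block). Ccn1 was 1 of 5 without overlap there, against 9.13% of all. Between day 3 and day 1, 0 of 5 members were called in GP cultures (0.706% of all, and 1.84% with the block) and 0 of 5 in GP/AA/BMP-2 cultures (0.133%, and 3.95% with the block), and 0 members had an unadjusted p under 0.05 in either without the block, against 6.44% of all probe sets in GP cultures and 8.37% in GP/AA/BMP-2 cultures. With the block, Ccn5 was under 0.05 in each (unadjusted p = 0.0162 in GP and 0.00665 in GP/AA/BMP-2 cultures), as were 1001 and 1246 of all probe sets. Between GP/AA/BMP-2 at day 3 and medium at day 0, Ccn5 alone of the 5 was called with and without the block (2.79% of all, and 11.9% with the block). Ccn1 and Ccn5 did not overlap there, against 19.5% of all probe sets. These comparisons share arrays with each other and are not independent.

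The members varied together in part once each prep's mean was taken off. Over the 15 arrays, the correlation of prep-centred log2 intensity was 0.91 between Ccn2 and Ccn4 (Spearman 0.89), and 0.49 without the centring. It was 0.69 between Ccn1 and Ccn2, 0.64 between Ccn1 and Ccn4 and 0.57 between Ccn3 and Ccn5, and for the last pair it turned to -0.14 without the centring. Ccn1 correlated at -0.47 with Ccn5, and Ccn2 at -0.46 with Ccn3 and at -0.12 with Ccn5. The arrays share preps and groups, so these values describe these 15 arrays and carry no test.

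**Figure D3:**
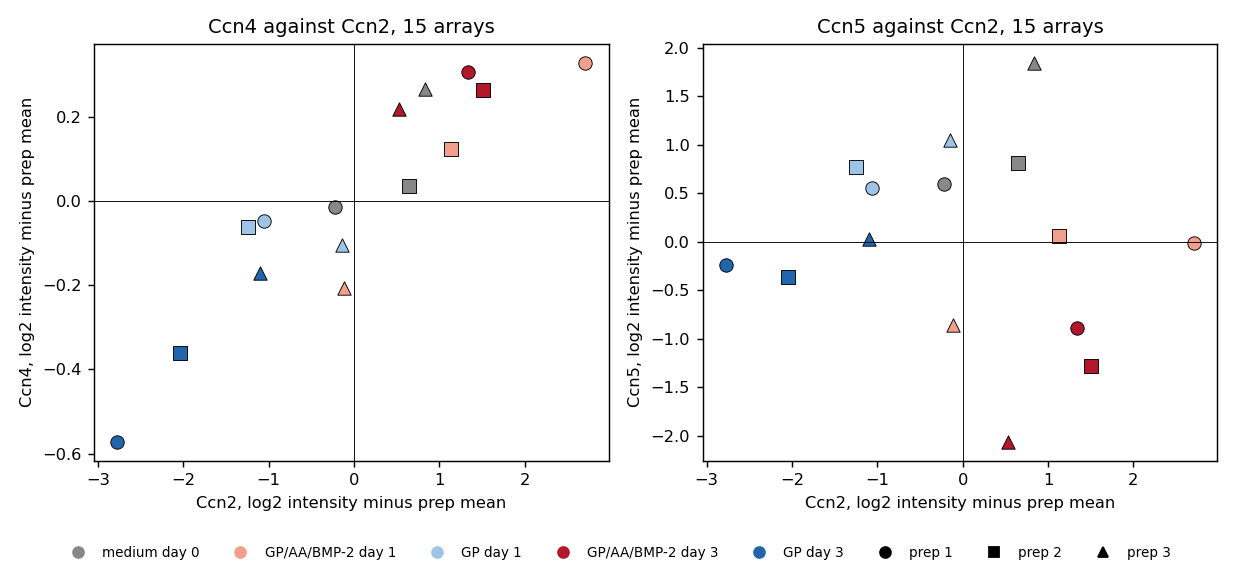
Log2 intensity of Ccn4 (left) and Ccn5 (right) against Ccn2, each minus the mean of its prep over 5 arrays, for 15 arrays coloured by group with markers by prep. Ccn4 follows Ccn2 (r = 0.91), with the GP day 3 arrays of preps 1 and 2 lowest for both, and Ccn5 does not (r = -0.12).

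By the same measure, the genes most like each member were listed among 5680 genes. Those for Ccn2 were Rnf149 (0.94), Ccn4 itself and Gadd45g (0.89), the last a stress-inducible growth arrest gene that rose by 2.13 on the log2 scale at day 3 (adjusted p = 0.0127 in limma). Those for Ccn4 were Ccn2, Hus1 (0.90) and Bcat1 (0.84). Ccn1 had Polr2g (0.84), Smyd2 (0.82) and Dffa (0.82). For Ccn3 they were Uba7 (0.94), Tenm4 (0.93) and Thbs2 (0.93), the last encoding thrombospondin 2, another matricellular protein. For Ccn5 they were Cyp1b1 (0.95), a cytochrome P450 that fell by 1.37 at day 3 (adjusted p = 0.00547 in limma), Tpd52l1 (0.92) and Rtn4 (0.92). In the fit without the block neither passed without prep 2 (0.369 for Gadd45g and 0.277 for Cyp1b1), and Gadd45g was also lost without prep 1 (0.210), without the GP/AA/BMP-2 array of prep 2 (0.0508) and without the GP array of prep 1 (0.0575) or prep 2 (0.0607). The centring matters to this list: without it Uba7 correlated with Ccn3 at 0.15 and Hus1 with Ccn4 at 0.52.

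The gene lists that follow were not tested as sets. Over all probe sets limma called 4.28% at day 3 and 0.933% at day 1, and 14.0% and 4.96% with the block. An unadjusted p under 0.05 was found for 16.8% at day 3 and 11.3% at day 1 without the block. Of the genes listed as receptors, co-receptors or decoy receptors that bind CCN proteins, 11 of 15 were tested. At day 3 limma called 1 higher and 0 lower between GP/AA/BMP-2 and GP. This was Tnfrsf11b, which encodes osteoprotegerin, the decoy receptor for RANKL: 423 ± 163 in GP/AA/BMP-2 cultures and 102 ± 24.6 in GP cultures (SD, n = 3 each), with a log2 fold change of 2.00 ± 0.31 and an adjusted p of 0.00312. With the block, 3 of the 11 were also lower, against 7.05% of all probe sets. These were Lrp6, a Wnt co-receptor (-0.74, adjusted p = 0.00147), Igf2r (-0.50, 0.00476), and Lrp1, a clearance receptor known to bind Ccn2. Lrp1, chosen for mention after its values were seen, averaged 607 in GP/AA/BMP-2 cultures and 1668 in GP cultures. Its log2 fold change was -1.49 ± 0.51, with an adjusted p of 0.123 without the block and 0.000506 with it. At day 1, 0 of 11 were called and 3 had an unadjusted p under 0.05; with the block, 1 was lower, the integrin subunit Itgb5 (-0.61, adjusted p = 0.0262). The median log2 fold change of the list was -0.10 at day 3 and -0.28 at day 1.

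Of the growth factors and matrix proteins that bind CCN proteins, 11 of 19 were tested, and at day 3 limma called 1 higher and 1 lower. Tgfb1, which encodes transforming growth factor beta 1, an inducer of Ccn2 in many cells, rose: 454 ± 53.6 in GP/AA/BMP-2 cultures and 88.7 ± 14.1 in GP cultures, a log2 fold change of 2.36 ± 0.33 (adjusted p = 0.00144). Igf1, insulin-like growth factor 1, fell: 52.0 ± 14.9 in GP/AA/BMP-2 cultures and 543 ± 113 in GP cultures, a log2 fold change of -3.40 ± 0.44 (adjusted p = 0.00115). The second Igf1 probe set gave -0.67 and an adjusted p of 0.304, so the probe sets disagree in size. At day 1, 0 of 11 were called and 3 had an unadjusted p under 0.05. With the block, Tgfb3 was higher (1.22, adjusted p = 0.0160) and Igf1 lower (-1.61, 0.00973) at day 1. The second Igf1 probe set gave only -0.18 at day 1, so that fall rests on 1 probe set. The list's median was -0.26 at day 3 and -0.13 at day 1.

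Genes of the transforming growth factor beta pathway were tested for 19 of 24 on the list. At day 3, 2 were higher and 0 lower: Tnc, which encodes the matrix glycoprotein tenascin C (1716 ± 135 in GP/AA/BMP-2 cultures and 342 ± 86.9 in GP cultures, log2 fold change 2.35 ± 0.45, adjusted p = 0.0104), and Col3a1, a fibrillar collagen (4889 ± 1160 in GP/AA/BMP-2 cultures and 2054 ± 623 in GP cultures, 1.27 ± 0.24, adjusted p = 0.0104). A second probe set of Tnc gave 1.66, and 2 others of Col3a1 gave 2.33 and 0.89. At day 1, 1 was higher and 0 lower, the early response factor Klf10 (276 ± 63.4 in GP/AA/BMP-2 cultures and 132 ± 18.3 in GP cultures, 1.05 ± 0.20, adjusted p = 0.0269). The blocked fit called 3 higher and 1 lower at day 3, adding Tgfbi (0.93, adjusted p = 0.00756) and Timp3 (-0.93, 0.0183). At day 1 it called 4 higher and 0 lower, adding Tgfbi (1.43, 0.00141), Tnc (1.42, 0.0177) and the inhibitory Smad, Smad7 (1.11, 0.00847). The list's median was 0.06 at day 3 and 0.14 at day 1.

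Among YAP and TEAD factors and their targets, a list that shares Ccn1 and Ccn2 as classic targets but was counted without them, 14 of 29 were tested. At day 3, 1 was higher and 0 lower: Dock5, a guanine nucleotide exchange factor (198 ± 41.9 in GP/AA/BMP-2 cultures and 81.0 ± 23.4 in GP cultures, log2 fold change 1.31 ± 0.28, adjusted p = 0.0178). In the same list, Amotl2 (-0.59) and Yap1 (-0.40), were lower only with the block (adjusted p = 0.00956 and 0.0229). At day 1, 0 of 14 were called and 3 had an unadjusted p under 0.05; with the block, Dock5 was higher (0.98, adjusted p = 0.0134) and Amotl2 lower (-0.67, 0.0108). The list's median was 0.05 at day 3 and 0.02 at day 1.

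Wnt pathway targets were tested for 13 of 20. At day 3, 1 was higher and 0 lower, Id2, a helix-loop-helix inhibitor that is also a direct BMP target (512 ± 333 in GP/AA/BMP-2 cultures and 50.8 ± 32.0 in GP cultures, log2 fold change 3.15 ± 0.61, adjusted p = 0.0105). At day 1, 0 of 13 were called and 3 had an unadjusted p under 0.05; with the block, 1 was lower, the cyclin gene Ccnd1 (-0.75, adjusted p = 0.0108). At day 3 the blocked fit called 3 higher, Myc (0.94, adjusted p = 0.00147) and Tnfrsf19 beside Id2. Tnfrsf19 averaged 98.1 ± 62.0 in GP/AA/BMP-2 cultures and 5.8 ± 7.73 in GP cultures, close to the floor of 2.8, so it passed the filter through the group where it was high and its fold is not given. Of the serum and immediate early response genes, 17 of 20 were tested and limma called 0 at either day, with 0 at an unadjusted p under 0.05, against 16.8% of all probe sets at day 3 and 11.3% at day 1. With the block, 1 was lower at day 3, the phosphatase gene Dusp1 (-0.63, adjusted p = 0.0338). The median of the serum and immediate early list was 0.44 at day 3 and -0.14 at day 1. That of the Wnt pathway targets was -0.085 at day 3 and -0.04 at day 1.

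Some calls on these 8 list genes were lost when preps or arrays were left out. Without prep 2 and the block, only 2 of 7502 probe sets were called at day 3 and 0 at day 1, while the log2 fold changes were 2.13 for Tgfb1, 1.89 for Tnfrsf11b, -3.39 for Igf1, 2.16 for Tnc, 1.32 for Dock5, 2.51 for Id2, 0.99 for Col3a1 and, at day 1, 1.04 for Klf10. Tgfb1 and Tnfrsf11b kept their call in 8 of 9 unblocked and 9 of 9 blocked fits that left out a prep or array. In the fit without the block each was lost without prep 2, with adjusted p-values of 0.676 for Klf10 at day 1 and, at day 3, 0.195 for Tnfrsf11b, 0.152 for Igf1, 0.207 for Tgfb1, 0.303 for Tnc, 0.341 for Col3a1, 0.369 for Id2 and 0.270 for Dock5. Without prep 1, Klf10 (0.318), Igf1 (0.0560), Tnc (0.186), Col3a1 (0.130), Id2 (0.297) and Dock5 (0.274) were lost too. Leaving out 1 array alone ended the call on Klf10 (GP/AA/BMP-2 array of prep 1, 0.103, or prep 2, 0.107, or GP array of prep 1, 0.0586, prep 2, 0.117, or prep 3, 0.0961) and on Dock5 (GP/AA/BMP-2 array of prep 1, 0.0570, or prep 2, 0.0683). Leaving out 1 GP array of day 3 did so for Col3a1 (prep 1, 0.0525, or prep 2, 0.0537), Id2 (prep 1, 0.0507, or prep 2, 0.0552) and Tnc (prep 2, 0.0518). With the block, Klf10 and Id2 alone of the 8 lost their call in such fits: without prep 1 (0.0566 and 0.0820) and without prep 2 (0.122 and 0.126).

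**Figure D4:**
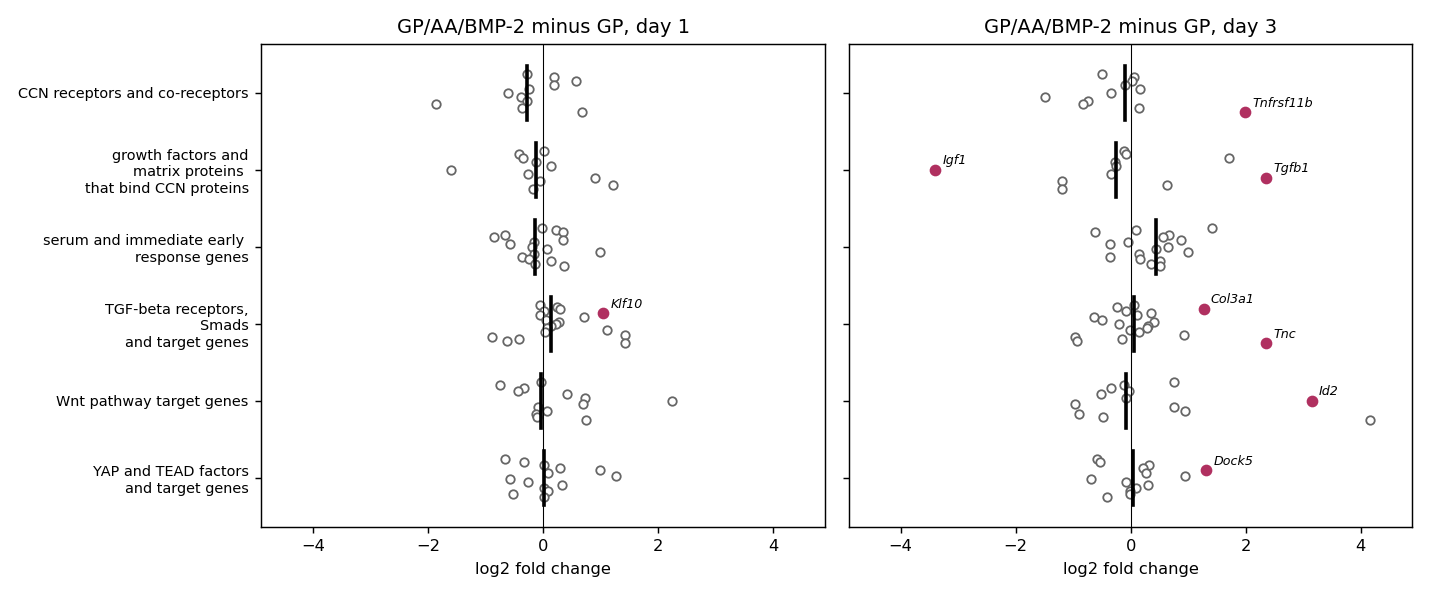
Log2 fold change of GP/AA/BMP-2 minus GP for the tested genes of 6 lists at day 1 (left) and day 3 (right); each point is 1 gene, vertical bars are list medians and filled, named points have an adjusted p under 0.05 without the block. Klf10 is the named gene at day 1, and at day 3 Igf1 is at -3.40 while the other named genes lie between 1.27 and 3.15.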

How the data were processed

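RNA of MC3T3 clone 1b cells was measured on 15 arrays in 5 groups of 3. The authors deposited 1 linear intensity per probe set and array, and the mean between the 2nd and 98th percentiles was 149.1 to 150.0 on every array. The software behind them is not given in the sources used here. Detection calls were not used.

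Values under 2.8 (10th percentile) were set to 2.8, log2 was taken, 66 control probe sets and probe sets with a mean under 24.8 (40th percentile) were left out, and 7502 were tested. Of 12422 probe sets, 10833 had 1 symbol, 396 several and 1193 none; names came from those with 1. limma 3.58.1 in R 4.3.3 (lmFit, eBayes with a mean trend) fitted all 15 arrays, 1 coefficient per group, without a block, for 7 contrasts, with Benjamini-Hochberg adjustment and a threshold of 0.05. The code was tested on simulated data.

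Prep numbers come from the labels and pair the samples: deviations from the group means correlated above 0.1 in 30 of 30 same-number pairs (0.185 to 0.702). The fit with the prep as a block is given beside the results on members and lists whose calls it changes. The number of arrays limits the precision. For genes with several probe sets the brightest was used for lists.

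Members, lists and tests were chosen with earlier results of these data known. All members were named; of other genes, the 3 most correlated with each member and, per list and day, up to 4 called ones. List genes called only with the block were named after their values were seen. The alternatives tried were the replicate block, other floors and filters, quantile normalization, median scaling, no mean trend, robust estimation, array weights, a fit of only the groups compared and leaving out preps or arrays, which for the blocked fit was added after the data were seen. Markers Runx2, Sp7, Spp1, Bglap and Bglap2 were not analysed here.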

Additional observations from a re-analysis of the deposited data

How the results depend on the processing

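Between GP/AA/BMP-2 and GP at day 3, 1 of the 5 members was called in the main setting, 4 with the replicate block and 0 with the floor at the 50th percentile, where Ccn2 had a log2 fold change of 2.25 (adjusted p = 0.0536); leaving out a prep or an array gave 0 to 1, and 0 to 4 with the block as well. At day 1 it was 0 in the main setting, 1 with array weights (Ccn2, 2.56, adjusted p = 0.0145) and 0 to 1 when a prep or array was left out, with the block or without it. Between GP/AA/BMP-2 at day 3 and medium at day 0, 1 was called (Ccn5), and 0 with the floor at the 50th percentile, no signal filter, no mean trend, robust estimation or only the groups compared (adjusted p 0.0543 to 0.0959), and 0 to 1 when a prep or array was left out (1 to 2 with the block as well). Between day 3 and day 1, in GP cultures and in GP/AA/BMP-2 cultures, such fits gave 0 members without the block and 0 to 1 with it.

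The difference between the day 3 and day 1 effects of Ccn5 turned positive with array weights (0.097) and the 50th percentile floor (0.145), against -0.16 in the main setting. Leaving out a prep or an array turned other uncalled values, given as ranges over fits with and without the block: Ccn4 at day 1 (-0.11 to 0.42), the difference between effects for Ccn1 (-0.53 to 0.27), Ccn3 (-1.29 to 1.08) and Ccn5 (-0.85 to 0.56), GP day 1 against medium for Ccn3 (-1.65 to 0.91), Ccn4 (-0.46 to 0.20) and, with the block only, Ccn5 (-0.60 to 0.18), GP day 3 against day 1 for Ccn3 (-0.47 to 1.89), GP/AA/BMP-2 day 3 against day 1 for Ccn2 (-0.97 to 0.80), Ccn3 (-0.069 to 1.34) and Ccn4 (-0.078 to 0.45), and GP/AA/BMP-2 day 3 against medium for Ccn4 (-0.13 to 0.53). The cause was not tested.

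Calls over all probe sets moved more: 70 at day 1 (0 to 372 over all alternatives), 321 at day 3 (2 to 1053), 0 for the difference between effects (0 to 20), 17 for GP day 1 against medium (0 to 61), 53 for GP day 3 against day 1 (0 to 172), 10 for GP/AA/BMP-2 day 3 against day 1 (0 to 296) and 209 for GP/AA/BMP-2 day 3 against medium (0 to 891). The highest count at day 1 and day 3 was that with the block. Beyond the day 3 calls of Ccn3, Ccn4 and Ccn5, the block changed no call on a member. Fitting only the groups compared ended the calls on Klf10 at day 1 (adjusted p = 0.136) and on Col3a1 (0.0583), Cyp1b1 (0.0702), Gadd45g (0.0831), Id2 (0.0831) and Dock5 (0.0838) at day 3.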
